A study of Mus musculus with 8 samples.

Results

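Cells of the embryonic day 13 (E13) mouse olfactory bulb that expressed a neurotensin reporter (GFP-positive) were compared with the cells of the same dissected bulbs that did not (GFP-negative). The comparison rests on 2 of the 8 libraries of the series, 1 for each E13 population. Of 42084 rows in the deposited expression table, 972 rows of small RNAs were left out and 10829 rows were kept, namely those with an FPKM of at least 5 in the higher of the 2 libraries. FPKM is the number of sequenced fragments per kilobase of transcript, scaled to the size of the library. Of the kept rows, 8518 name a single gene with a gene symbol, and these are called named genes here.

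The mice were on a mixed 129 x C57BL/6J background. They carried, in 1 or both copies, a neurotensin (Nts) allele replaced by Nts followed by an internal ribosome entry site and tau fused to green fluorescent protein (NTS-IRES-tauGFP). Both populations came from such mice, so GFP-negative cells carry the allele too. The reporter is made from the Nts locus, so it marks cells by the activity of that locus, whatever their type. How long GFP lasts after the locus is switched off was not measured here. Bulbs were dissected at E13, cells were freed with papain and sorted by fluorescence, and RNA of integrity above 7 was sequenced as single-end reads of 50 cycles. Sorted bulbs of E15, E17 and newborn (P0) mice gave another 6 libraries. These are used here to set E13 values beside those of later ages and to test the E13 ratio against the later ratios. The titles and the cell population field define the populations, because the source field calls every sample GFP-positive. The number of embryos in a sort was not stated in the sources used.

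Mitral and tufted cells are the glutamatergic projection neurons of the olfactory bulb and send their axons to the olfactory cortex. They are among the first neurons of the bulb to be born, from radial glia lining the ventricle of the bulb primordium, while GABAergic interneurons arrive later from the ventral forebrain. Neurotensin is a secreted peptide transmitter that is made as a precursor, cut by convertases and sensed by receptors on other cells. The dissected bulb at this age also holds dividing progenitors, blood and vessels.

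With 1 library a side there is no replicate and no test at E13. Values are given for both libraries with the log2 ratio, log2((GFP-positive FPKM + 1) / (GFP-negative FPKM + 1)), which understates differences of low genes, and "higher" and "lower" describe these 2 libraries. A gene is counted as past the fold when this ratio is at least 1 or at most -1. The low values of the table imply a relative depth of about 9450000 reads in the GFP-positive and 6910000 in the GFP-negative library, so the minimum of 5 FPKM was worth about 85.0 and 62.2 reads for a transcript of 2 kb. In bulk samples of this kind, fewer cells of a type and less RNA per cell cannot be told apart.

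Across the kept rows 1638 were higher in GFP-positive cells past the fold (15.1%) and 2078 were lower (19.2%). Among named genes the shares were 14.3% (1215 genes) and 16.6% (1411 genes). These named-gene shares are the background for the list counts given below. The median log2 ratio of the named genes was -0.0028, with quartiles of -0.63 and 0.60, so the bulk of genes sat close to equal in both libraries. The far ends were uneven. Only 55 named genes (0.646%) had a ratio of at least 3, against 296 (3.47%) with a ratio of at most -3. Of the named genes, 60 were listed at 0 in the GFP-positive library and 5 in the GFP-negative library. Rows at the far ends were often short: of rows with an annotated length, 3.89% of all kept, 64.6% of those at 3 or above and 26.6% of those at -3 or below were shorter than 200 bases, for which FPKM is unstable. Most of these are predicted or clone-named rows, and they stay out of the named genes.

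The FPKM minimum and the fold are plain limits with genes on both sides of them. Zfpm2 was kept at 5.0003 in its higher library while Bbs5 was left out at 4.9989, and Tmem170b, with a ratio of 1.0009, counted as past the fold while Mtg1, with 0.9997, did not.

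**Figure D1:**
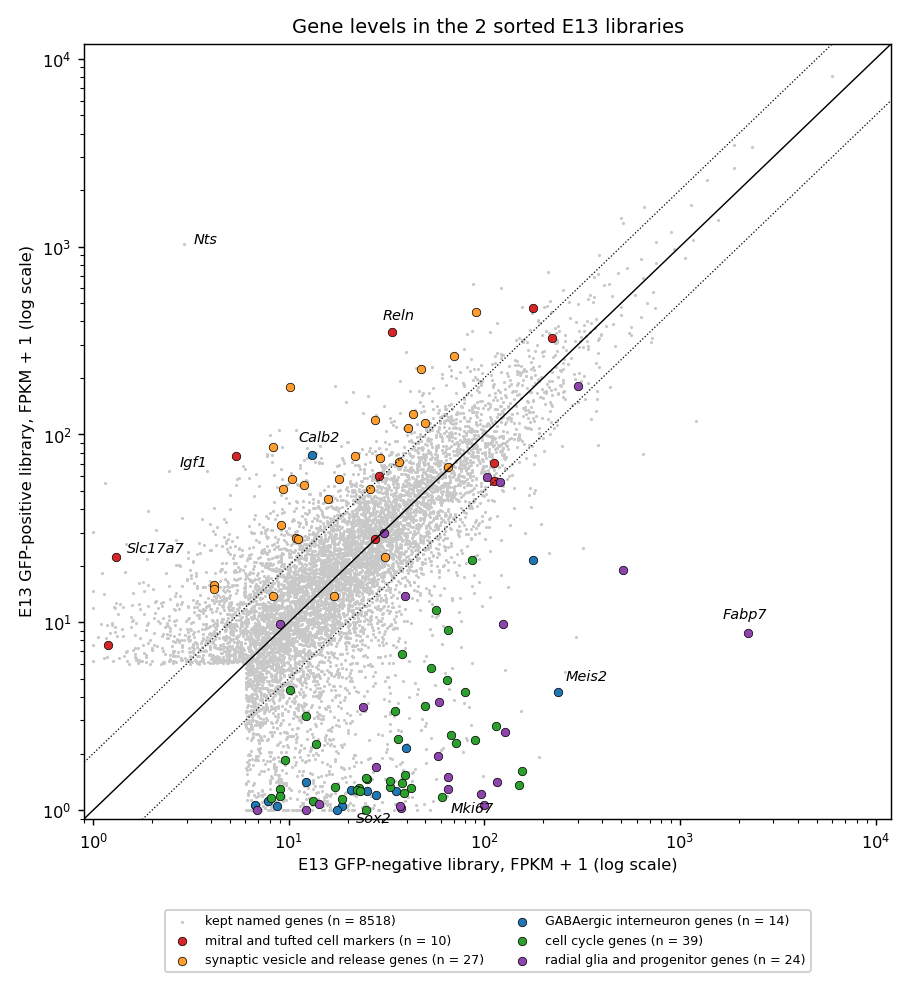
Grey points are kept named genes, with its FPKM + 1 in the E13 GFP-negative library on the x axis and in the GFP-positive library on the y axis, both on log scales. The solid line marks equal values and the dotted lines a log2 ratio of 1 and -1. Colours mark the kept members of 5 gene lists. Nts stands alone far above the line, and most synaptic vesicle genes lie above it. Most cell cycle, radial glia and GABAergic interneuron genes lie near the bottom edge.

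The reporter locus separated the 2 libraries most clearly. Nts (chr10:102481756-102490486, minus strand, mm10) had an FPKM of 1036 in GFP-positive and 1.92 in GFP-negative cells, a log2 ratio of 8.47, the highest of all kept named genes. This is the gene the sort was built on, so it checks the labels and is not a finding. The ratio was 7.43 at E15, 6.68 at E17 and 7.33 at P0. Mapt, which encodes tau, had an FPKM of 274 against 38.7 (ratio 2.79), but tau is also part of the reporter, and reads of the transgene and of Mapt cannot be told apart. The stretch in front of the locus that drives the reporter is shown, 250 bases before to 50 bases after the start of Nts (RefSeq, GRCm38.p6, chr10:102490369-102490668, minus strand). Capitals mark its only match to TGANTCA, the core letters bound by AP-1 factors such as Fos and Jun, which starts 207 bases before the start.

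Nts: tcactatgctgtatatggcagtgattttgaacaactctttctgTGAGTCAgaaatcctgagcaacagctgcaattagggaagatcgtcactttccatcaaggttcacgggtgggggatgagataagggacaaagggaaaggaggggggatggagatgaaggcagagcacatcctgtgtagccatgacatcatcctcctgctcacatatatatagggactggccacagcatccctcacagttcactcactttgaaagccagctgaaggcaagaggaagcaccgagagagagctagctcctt

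TGANTCA was searched on both strands in promoter windows of the same length. Of all 27025 genes with such a window, 8.97% hold it in any of their windows. A match of letters is a description and not a binding site.

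Other genes of the neurotensin pathway were lower in level or closer to even. Of 14 genes, Nts included, 6 were kept, and only Nts and Nln were higher past the fold and Thop1 lower. The receptors were low or even: Ntsr1, the high-affinity receptor, had an FPKM of 0.44 in GFP-positive and 4.45 in GFP-negative cells and Ntsr2 of 0.0783 and 0, both under the minimum. Sort1, the sorting receptor sortilin that also binds neurotensin, had 36.4 and 38.5 (ratio -0.08) in a row shared with a predicted gene. Among processing enzymes, carboxypeptidase E (Cpe) had 102 and 66.7 (ratio 0.60), while the convertases Pcsk1 (1.23 and 0.349) and Pcsk2 (2.83 and 2.82) were under the minimum in both libraries. The peptidases that cut neurotensin went separate ways. Nln, neurolysin, had 13.9 against 3.82 (ratio 1.63), and Thop1, thimet oligopeptidase, 7.81 against 19.5 (ratio -1.22).

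Granule protein genes were more often higher than lower. All 9 listed were kept, with 6 higher and 1 lower past the fold and a median ratio of 1.53. Together with 14 peptide genes, Nts among them, the list had 8 higher and 1 lower of 11 kept, and its median of 1.64 thus includes the gene of the sort. Scg2, secretogranin 2, had an FPKM of 98.8 against 7.00 (ratio 3.64), Vgf 9.17 against 1.59 (ratio 1.97) and Chga, chromogranin A, 21.0 against 5.31 (ratio 1.8). Besides Nts the only kept peptide was Tac1, the substance P precursor, with 11.4 against 1.67 (ratio 2.22). Sst, Vip, Cck, Penk, Crh, Adcyap1 and Npy stayed under the minimum in both libraries. Cadps2, a granule release factor, went the other way with 0.39 against 5.02 (ratio -2.11).

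Markers of mitral and tufted cells stood mostly higher in GFP-positive cells, but not the transcription factors among them. Of 15 listed genes 14 had a row of their own, 10 were kept, and 6 were higher and none lower past the fold, with a median of 1.24. Slc17a7, the vesicular glutamate transporter VGLUT1 (chr7:45163949-45176142), had 21.4 against 0.315 (ratio 4.09). Slc17a6, the transporter VGLUT2, had 59.2 against 27.8 (ratio 1.07), a higher level and a smaller difference. Reln, the secreted protein reelin, had 349 against 32.6 (ratio 3.38), and Cdhr1, a cadherin-related protein of mitral and tufted cells, 75.4 against 4.38 (ratio 3.83). These 3 markers, Slc17a7, Reln and Cdhr1, gave the clearest separation in the list. The kept transcription factors of the list were within the fold: Tbr1 had 325 against 220 (ratio 0.56), Eomes 69.3 against 111 (ratio -0.67) and Etv1 55.6 against 111 (ratio -0.99, just short of the fold). Tbx21, a factor largely restricted to mitral and tufted cells in the bulb, was under the minimum with 2.07 against 0.189. Eomes is also made by intermediate progenitors of the dorsal forebrain.

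Transmitter genes divided by type. Of 21 transmitter identity genes 8 were kept. All 3 kept glutamate genes were higher and all 5 kept GABA genes were lower. Gad2, which makes GABA, had 0.285 against 19.8 (ratio -4.02), Gad1 0.0686 against 5.72 (ratio -2.65) and Slc32a1, the vesicular GABA transporter, 0.122 against 6.87 (ratio -2.81). Both populations were under the minimum for every monoamine and acetylcholine gene listed.

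Reelin and calretinin also mark Cajal-Retzius cells, early neurons of the cortical surface, so the list of genes of those cells was read beside them. Of 11 genes, Reln and Calb2 included, 8 were kept, with 5 lower and 3 higher, and the higher ones were Reln, Calb2 and Nhlh2. Calb2, calretinin, had 76.7 against 12.2 (ratio 2.56) and Nhlh2 12 against 3.42 (ratio 1.55). Trp73, a defining factor of those cells, was at 0.379 and 0.675, and Lhx1 and Lhx5 were at 1.0 or below in both. Ebf1 (12.8 against 68.8), Ebf3 (1.73 against 10) and Cacna2d2 (6.77 against 30.6) were lower in GFP-positive cells, with ratios of -2.34, -2.01 and -2.02.

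**Figure D2:**
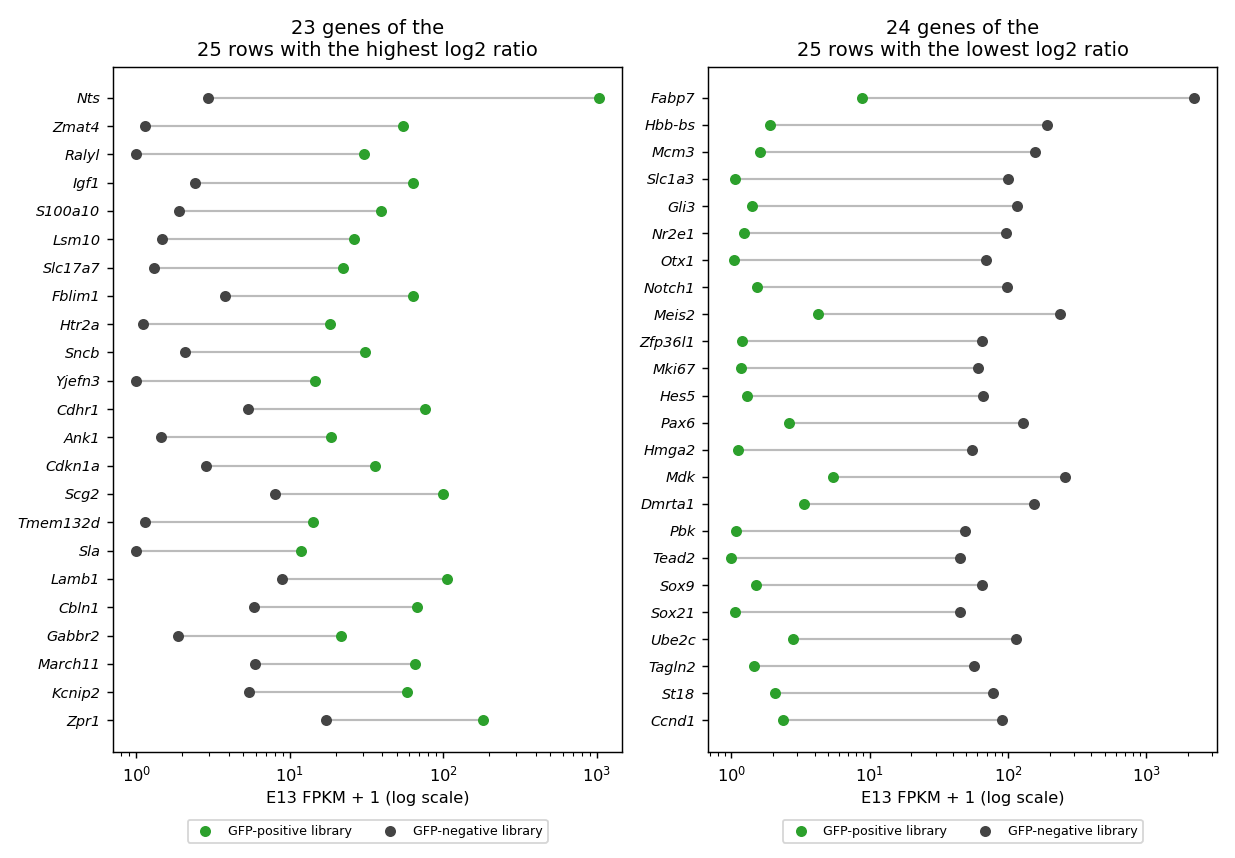
Genes among the 25 kept rows with the highest E13 log2 ratio (left; Ralyl has 2 rows and is drawn by the higher) and among the 25 with the lowest (right), from rows naming 1 gene. Each pair of points gives FPKM + 1 on a log scale, green for the GFP-positive and grey for the GFP-negative library. Nts reaches 1036 in GFP-positive cells on the left, and Fabp7 reaches 2221 in GFP-negative cells on the right.

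After Nts, the genes with the highest ratios had varied roles, and examples with a known role follow. Igf1, insulin-like growth factor 1, had an FPKM of 62.9 against 1.43 (ratio 4.72). Sncb, a presynaptic protein, had 29.9 against 1.09 (ratio 3.89). Htr2a, the serotonin receptor 2A, had 17.4 against 0.104 (ratio 4.06). Igf1, Sncb and Htr2a were near the floor of the GFP-negative library. Lamb1, a laminin chain, had 105 against 7.95 (ratio 3.56). Cbln1, a secreted synapse organiser, had 66.9 against 4.86 (ratio 3.53), and Kcnip2, an accessory subunit of potassium channels, 57.3 against 4.46 (ratio 3.41). Zmat4, a zinc finger gene, had 53.8 against 0.147 (ratio 5.58). Yjefn3 (13.7) and Sla (10.9) were listed at 0 in the GFP-negative library, so no ratio is given. Ralyl appeared in 2 rows, with 57.3 against 4.57 in the longer (ratio 3.39) and 29.3 against a listed 0 in a short one.

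Genes of neurite growth and the neuronal cytoskeleton were abundant in both libraries and higher in GFP-positive cells. Of 23 listed, 20 had a row of their own and all 20 were kept, with 12 higher and none lower past the fold and a median of 1.35. Gap43, a growth cone protein, had 634 against 86.8 (ratio 2.85), Ina, the filament protein alpha-internexin, 605 against 120 (ratio 2.32) and Stmn2, a tubulin-binding protein of growing axons, 1420 against 501 (ratio 1.5). Nefl, the light neurofilament, was at a low level but further apart, with 13.7 against 0.814 (ratio 3.02). Map2 (554 against 347, ratio 0.67), Tubb2b (526 against 337, ratio 0.64) and Ncam1 (217 against 163, ratio 0.42) were high in the GFP-negative library as well. Which GFP-negative cells made these transcripts was not tested. Tubb3 was not analysed here.

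Genes of the presynaptic release machinery were mostly higher in GFP-positive cells. Of 31 listed 27 were kept, 21 were higher and none lower past the fold, and the median was 1.67, against -0.0028 for all named genes. Each functional class had higher members. For membrane fusion, the SNARE protein Snap25 had 447 against 89.1 (ratio 2.31), Vamp2 259 against 68.8 (ratio 1.90) and complexin 1 (Cplx1) 50.4 against 8.29 (ratio 2.47). Complexin 2 (Cplx2) was an exception with 12.9 against 16.0 (ratio -0.29). Among vesicle proteins, Sv2b had 84.3 against 7.34 (ratio 3.35), Sv2a 57.3 against 9.42 (ratio 2.48) and Rab3a 119 against 26.6 (ratio 2.12). The calcium sensor synaptotagmin 1 (Syt1) had 222 against 46.7 (ratio 2.23). At the active zone 5 of 7 genes were higher, among them Bsn, bassoon, with 44.1 against 15 (ratio 1.5). Unc13b, a priming factor, was not, with 21.2 against 30.1 (ratio -0.49).

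Voltage-gated and inwardly rectifying channels showed the same direction less evenly. Of 44 listed 32 were kept, with 17 higher and 2 lower past the fold and a median of 1.14. Calcium channel genes gave most of the higher ones, 11 of 14 kept. Cacna1e, a pore subunit of R-type channels, had 70.6 against 7.24 (ratio 3.12) and the auxiliary subunit Cacnb2 77.4 against 6.71 (ratio 3.35). The sodium channel subunit Scn3b had 104 against 9.91 (ratio 3.27), and Kcnj6, a G protein-gated potassium channel, 8.73 against 0.0917 (ratio 3.16). The lower ones were Cacna2d2, given above, and Kcnd3, an A-type potassium channel, with 12.1 against 29.2 (ratio -1.20). Hcn2, a channel opened by hyperpolarisation, was near 0 in both libraries (0.182 in GFP-positive and 0 in GFP-negative cells).

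Glutamate receptor genes lay on both sides of the fold, while kept GABA and glycine receptor genes were higher or within it. Of 30 glutamate receptor and auxiliary genes 19 were kept, 10 higher and 3 lower, with a median of 1.21. The NMDA receptor subunits Grin1 (14.8 against 3.26, ratio 1.89) and Grin2b (43.5 against 9.95, ratio 2.02) and the metabotropic receptor Grm3 (9.34 against 0.604, ratio 2.69) were higher. AMPA receptor subunits went both ways. Gria1 had 4.40 against 17 (ratio -1.74), while Gria2 had 55.3 against 35.6 (ratio 0.62) and Gria3 1.06 against 23.3 (ratio -3.56), both in rows shared with a predicted gene. The kainate receptor subunit Grik3 was lower, with 0.264 against 6.32 (ratio -2.53). Of 19 GABA and glycine receptor and chloride transporter genes 11 were kept, 8 higher and none lower, with a median of 1.78. All 6 kept GABA-A subunits were higher, led by Gabra5 with 46.7 against 3.99 (ratio 3.26). Gabbr2, a GABA-B receptor subunit, had 20.7 against 0.883 (ratio 3.52), whereas its partner Gabbr1 had 92.7 against 74.2 (ratio 0.32). The chloride importer Slc12a2 (5.43 against 7.71, ratio -0.44) and exporter Slc12a5 (12.6 against 8.46, ratio 0.52, in a row shared with a predicted gene) were not past the fold.

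**Figure D3:**
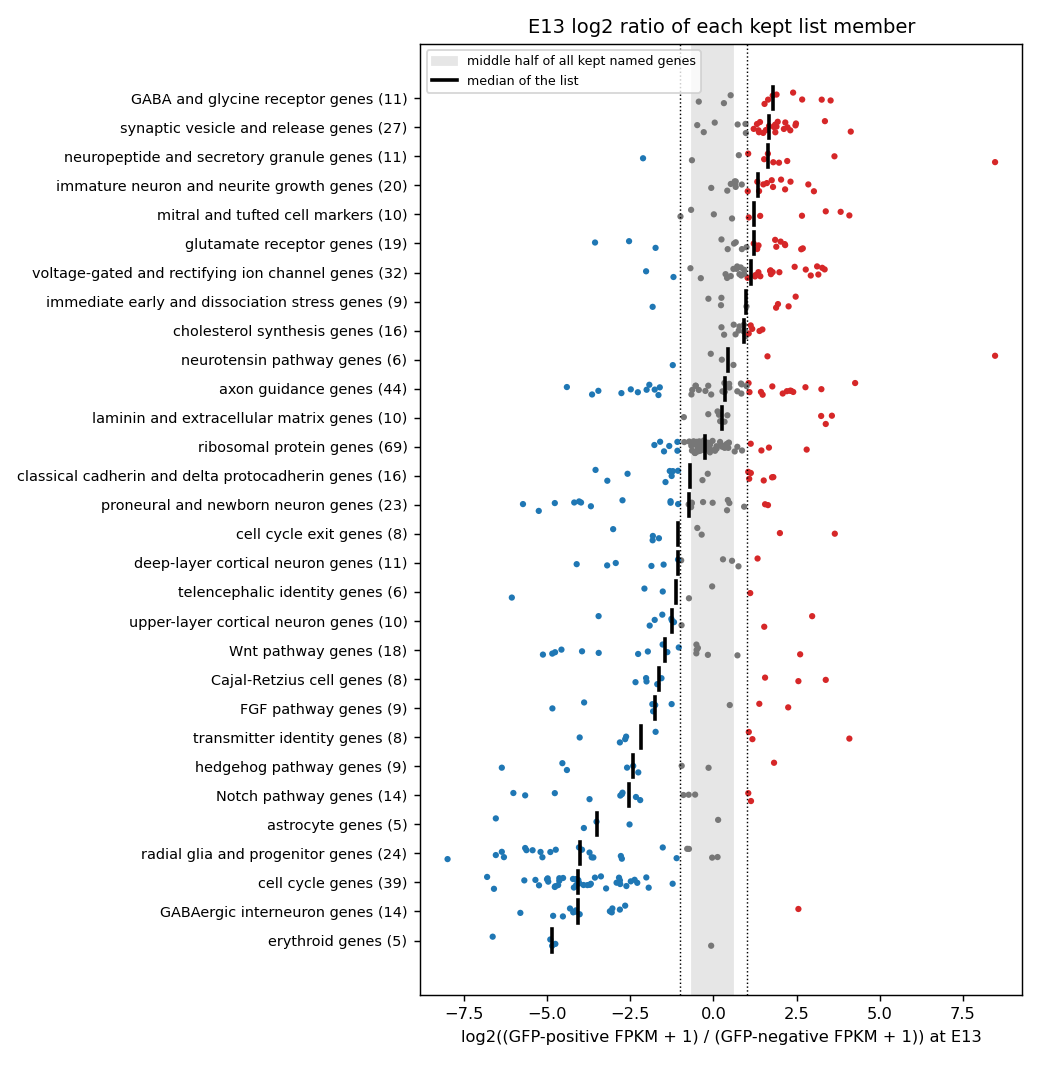
E13 log2 ratio of every kept member of each gene list with at least 5 kept members, with the number kept in brackets. Points are genes, red at 1 or above, blue at -1 or below and grey between, black bars are list medians, and the shaded band runs between the quartiles of all kept named genes, -0.63 and 0.60. Synaptic, receptor and neurite growth lists lie to the right, and cell cycle, radial glia, GABAergic interneuron and erythroid lists to the left. Lists share some genes.

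Guidance genes were found on both sides of the fold. Of 54 listed, 53 had a row of their own and 44 were kept, with 13 higher, 11 lower and a median of 0.34, where 14.3% of named genes were higher and 16.6% lower. Among receptors, the netrin receptors Unc5b (15.3 against 0.712, ratio 3.25) and Unc5a (23.4 against 3.83, ratio 2.34) were higher, while Unc5d (2.10 against 9.52, ratio -1.76) was lower and Dcc (92.7 against 147, ratio -0.66) was high in both. Robo2, a Slit receptor, had 400 against 188 (ratio 1.09). Ephrin receptors split in the same way: Epha3 had 44.3 against 12.3 (ratio 1.77), and Epha4 0.753 against 36.1 (ratio -4.41). The semaphorin receptor Plxna4 had 0.968 against 20.6 (ratio -3.46). The semaphorin receptor Nrp1 had 50.1 against 1.66 (ratio 4.26), but its row also names a microRNA and read -2.92 at E15. Among ligands, Draxin had 53.7 against 10 (ratio 2.31), Sema3e 12.8 against 1.61 (ratio 2.40) and Efna3 23.4 against 4.74 (ratio 2.09). Sema3c had 11.5 in GFP-negative cells and was listed at 0 in GFP-positive cells.

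Adhesion and matrix genes were few but some were far apart. Of 23 laminin and extracellular matrix genes 10 were kept, with 3 higher and none lower. Reln and Lamb1, given above, were among the higher ones. The laminin alpha chains Lama1, Lama2, Lama4 and Lama5 were all under the minimum, at 0.342 or below in GFP-positive cells, and Lamc1 was even with 14.5 against 16.3 (ratio -0.15). Of 19 classical cadherins and delta-protocadherins 16 were kept, with 6 higher and 8 lower, where 14.3% of named genes were higher and 16.6% lower. Cdh11 (40.1 against 10.8, ratio 1.8), Cdh7 (39.6 against 13.2, ratio 1.51) and Pcdh7 (162 against 47.0, ratio 1.76) were higher. Cdh6 (0.65 against 18.2, ratio -3.54), Cdh8 (0.879 against 16.1, ratio -3.19) and Pcdh8 (0.81 against 9.83, ratio -2.58) were lower.

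On the other side, cell cycle genes were much lower in GFP-positive cells. Of 41 listed 39 had a row and all 39 were kept and were lower past the fold, against 16.6% of named genes, 28 of them with a ratio of at most -3. The median was -4.06, and the summed FPKM of the list was 83.2 in GFP-positive and 1725 in GFP-negative cells. For DNA replication, the helicase subunit Mcm3 had 0.616 against 155 (ratio -6.60), Mcm6 3.91 against 63.4 (ratio -3.71) and the sliding clamp Pcna 5.81 against 37.1 (ratio -2.48). For mitosis, the proliferation marker Mki67 had 0.181 against 59.7 (ratio -5.68), the kinase Cdk1 0.309 against 40.9 (ratio -5.0) and Ccnb2, cyclin B2, 0.315 against 21.9 (ratio -4.13). The median was -4.19 over 23 mitosis genes and -3.23 over 13 replication genes. Of the cyclins of the first gap phase, Ccnd1 had 1.37 against 88.9 (ratio -5.24) and Ccnd2 1.28 against 70.3 (ratio -4.97), while Ccnd3, with 3.34 against 9.13 (ratio -1.22), was the member nearest to even. Cdt1 and Gins2 were not analysed here.

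The promoters of these genes share letters that are known from cell cycle control. CCAAT boxes, bound by NF-Y, and the CHR element, TTTGAA, bound by the MuvB complex, mark mitosis genes, and E2F-type sites, searched as TTTGGCGC or TTTCGCGC, mark replication genes. Of 23 mitosis genes 19 have a window in the RefSeq table. Both CCAAT and TTTGAA, on either strand, were in 14 of those 19 (73.7%), against 7.97% of all genes with a window. CCAAT, with or without TTTGAA, was in 17 of 19 (89.5%, against 41.1%), and TTTGAA, with or without CCAAT, in 14 of 19 (73.7%, against 20.2%). An E2F-type match was in 5 of 12 replication genes with a window (41.7%, against 0.929%). Ccnb2, Cdc20 and Mcm6 are shown as examples chosen because they hold these letters, each from 250 bases before to 50 after the start, with the matches in capitals (RefSeq, GRCm38.p6). Ccnb2 lies at chr9:70421505-70421804, Cdc20 at chr4:118437294-118437593 and Mcm6 at chr1:128359656-128359955, all on the minus strand.

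Ccnb2: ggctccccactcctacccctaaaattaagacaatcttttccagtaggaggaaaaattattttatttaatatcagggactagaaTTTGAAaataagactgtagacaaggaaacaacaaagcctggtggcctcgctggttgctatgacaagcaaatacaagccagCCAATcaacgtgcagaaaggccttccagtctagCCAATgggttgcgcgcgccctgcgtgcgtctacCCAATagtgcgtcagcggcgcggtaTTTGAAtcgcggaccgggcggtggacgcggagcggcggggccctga
Cdc20: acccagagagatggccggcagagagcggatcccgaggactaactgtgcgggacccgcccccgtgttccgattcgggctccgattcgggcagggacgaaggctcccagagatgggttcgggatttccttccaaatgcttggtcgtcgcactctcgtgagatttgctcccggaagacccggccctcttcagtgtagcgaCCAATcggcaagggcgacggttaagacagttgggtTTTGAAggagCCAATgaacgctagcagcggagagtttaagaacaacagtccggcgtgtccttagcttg
Mcm6: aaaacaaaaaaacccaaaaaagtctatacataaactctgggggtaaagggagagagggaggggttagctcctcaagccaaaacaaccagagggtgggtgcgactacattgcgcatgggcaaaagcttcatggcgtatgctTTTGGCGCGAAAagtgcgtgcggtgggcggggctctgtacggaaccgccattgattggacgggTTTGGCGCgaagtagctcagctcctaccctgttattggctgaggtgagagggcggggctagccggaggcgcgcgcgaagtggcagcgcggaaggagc

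Ccnb2 has CCAAT starting 87, 54 and 21 bases before the start and TTTGAA 167 bases before and at position 5 after it. Cdc20, the activator of the anaphase-promoting complex, has CCAAT 53 and 8 bases before and TTTGAA 18 bases before the start, and its FPKM was 0.464 against 24.2 (ratio -4.11). In Mcm6, TTTGGCGC starts 110 and 47 bases before the start, and the first match overlaps a TTTCGCGC on the other strand that begins at 106. The matches describe the windows and were not tested for binding.

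Inhibitors of the cell cycle went both ways. Of 8 exit genes, all kept, 2 were higher and 4 lower. Cdkn1a, the inhibitor p21, had 34.8 against 1.85 (ratio 3.65) and Cdkn2d, the inhibitor p19, 42.9 against 9.98 (ratio 2.0). Cdkn1b, the inhibitor p27, went the other way with 4.28 against 15.4 (ratio -1.64), and Cdkn1c, p57, was near even with 26.6 against 34.2 (ratio -0.35). Btg2, an antiproliferative factor of neurogenic divisions, had 3.06 against 13.4 (ratio -1.83).

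Genes of radial glia and progenitors followed the cell cycle genes. Of 24 listed all were kept, with none higher, 20 lower past the fold and a median of -4.00. Fabp7, the brain lipid-binding protein of radial glia (chr10:57784881-57788450), had 7.73 in GFP-positive and 2221 in GFP-negative cells (ratio -7.99), the lowest ratio of all named genes. Slc1a3, the glial glutamate transporter GLAST, had 0.0653 against 98.2 (ratio -6.54), Sox2 0.0467 against 35.9 (ratio -5.14) and Pax6 1.60 against 127 (ratio -5.62). Vim, the filament protein vimentin, had 18.1 against 508 (ratio -4.74). The 4 members within the fold were 2 transcription factors of the dorsal forebrain, an RNA-binding protein and a matrix protein. Emx1 had 28.9 against 29.6 (ratio -0.04), Lhx2 180 against 300 (ratio -0.73) and Msi1 58.7 against 102 (ratio -0.79). Tnc had 8.83 against 8.01 (ratio 0.13).

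The Notch pathway keeps progenitors from becoming neurons, and its kept receptors and targets were all lower. Of 20 genes 14 were kept, with 9 lower, 2 higher and a median of -2.53. Notch1 had 0.522 against 97.3 (ratio -6.01), Notch2 1.91 against 13.6 (ratio -2.33) and Notch3 0.174 against 6.89 (ratio -2.75). The targets Hes5 (0.295 against 64.5, ratio -5.66) and Hes1 (0.0833 against 13.3, ratio -3.72) and the glycosyltransferase Mfng (0.57 against 41.8, ratio -4.77) were lower as well. Ligands differed from the receptors: Jag1 had 23.7 against 10.3 (ratio 1.13) and Dll1 52.9 against 89.1 (ratio -0.74), while Dll3 had 2.37 against 21.4 (ratio -2.73). The DNA-binding partner of Notch, Rbpj, was closer to even with 7.82 against 11.9 (ratio -0.55). GTGGGAA, the letters that Rbpj binds, is in 3 of 16 Notch pathway genes with a window (18.8%, against 7.25% of all genes with a window). Hes5 is shown because it is the target furthest apart and holds 1 match on each strand, 226 (printed as its reverse complement) and 83 bases before the start (RefSeq, GRCm38.p6, chr4:154960673-154960972, plus strand).

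Hes5: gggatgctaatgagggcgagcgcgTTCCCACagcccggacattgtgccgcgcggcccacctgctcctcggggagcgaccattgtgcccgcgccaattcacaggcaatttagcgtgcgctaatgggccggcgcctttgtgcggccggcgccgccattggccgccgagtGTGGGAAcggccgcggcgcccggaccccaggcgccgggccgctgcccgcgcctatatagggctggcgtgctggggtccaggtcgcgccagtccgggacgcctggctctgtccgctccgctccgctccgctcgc

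Capitals in the Hes5 window mark those letters.

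Genes of proneural factors and newborn neurons were more often lower than higher. Of 25 proneural and newborn neuron genes 24 had a row of their own and 23 were kept, with 11 lower, 2 higher and a median of -0.74. Neurog1 had 15.4 in GFP-negative cells and was listed at 0 in GFP-positive cells. Neurog2 had 2.86 against 69.2 (ratio -4.18) and Nhlh1, a factor of newly born neurons, 2.05 against 47.1 (ratio -3.98). Neurod2 (67.0 against 68.0, ratio -0.02), Neurod6 (180 against 133, ratio 0.43) and Sox11 (295 against 464, ratio -0.65) were within the fold. The 2 higher ones were Nhlh2, given above, and Myt1l, a factor that represses other fates in neurons, with 52.3 against 16.1 (ratio 1.64), while St18, a relative of Myt1l, had 1.05 against 77.1 (ratio -5.25).

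Genes of the Wnt, hedgehog and FGF pathways were more often lower than higher, where 16.6% of named genes were lower and 14.3% higher. Of 33 Wnt genes 18 were kept, with 11 lower and 1 higher and a median of -1.45. All 3 kept inhibitors were lower, whereas 3 of 7 kept receptors were lower and 4 were within the fold, with a receptor median of -0.51. The secreted inhibitor Sfrp1 had 7.39 against 292 (ratio -5.12), the receptor Fzd8 0.10 against 28.8 (ratio -4.76) and the transcription factor Tcf7l2 1.11 against 49.0 (ratio -4.57). Ndp, norrin, a ligand of the receptor Fzd4, was the 1 higher gene, with 27.3 against 3.65 (ratio 2.61). Of 12 hedgehog genes 9 were kept, with 6 lower and 1 higher. Among the lower, Gli3 had 0.409 against 115 (ratio -6.36) and the transducer Smo 3.03 against 23.4 (ratio -2.60). Of 17 FGF genes 16 had a row of their own and 9 were kept, with 6 lower and 2 higher. Etv5, a factor induced by FGF signals, had 1.15 against 60.5 (ratio -4.84) and the receptor Fgfr1 19.8 against 69.0 (ratio -1.75). The higher ones were ligands, Fgf9 with 32.4 against 6.02 (ratio 2.25) and Fgf18 with 8.83 against 2.77 (ratio 1.38).

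Genes of GABAergic interneurons were as far apart as those of progenitors. Of 23 listed 14 were kept, with 13 lower, 1 higher and a median of -4.08, and 11 of the 13 were at -3 or below. The factors Dlx1 (1.13 against 38.6, ratio -4.21) and Dlx5 (0.259 against 34.5, ratio -4.82) act in the development of forebrain interneurons. Meis2, made in progenitors and interneurons of the bulb, had 3.25 against 237 (ratio -5.80). The 1 higher gene was Calb2, which Cajal-Retzius cells and other neurons make too. Of the factors of the medial ganglionic eminence, Nkx2-1, Lhx6 and Lhx8 were listed at 0 in both libraries. Summed over the list, FPKM was 104 in GFP-positive and 640 in GFP-negative cells, and Calb2 gave most of the GFP-positive sum. The 17 transcription factors of the list summed to 26.2 and 594, and its 4 transmitter genes to 0.475 and 33.7.

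Genes that divide cortical neurons by layer were more often lower than higher in both layer lists, where 16.6% of named genes were lower and 14.3% higher. Of 13 deep-layer genes 11 were kept, 1 higher and 6 lower: Bcl11b (CTIP2) had 113 against 44.4 (ratio 1.33), Fezf2 57.0 against 33.4 (ratio 0.75), and Sox5 1.92 against 49.4 (ratio -4.11). Of 11 upper-layer genes 10 were kept, 2 higher and 7 lower: Mdga1, an adhesion protein, had 167 against 20.4 (ratio 2.97), Lmo4 182 against 62.5 (ratio 1.53), and Pou3f2 8.28 against 34.0 (ratio -1.92). The GFP-positive library thus paired high Tbr1, Bcl11b, Lmo4 and Mdga1 with little Sox5. Of 7 factors of the forebrain 6 were kept, with 1 higher, 3 lower and a median of -1.13. The higher one was Lhx9, also listed among factors of other brain regions, with 45.8 against 20.7 (ratio 1.11). Otx1 had 0.0407 against 68.4 (ratio -6.06). Of 19 measured factors of other brain regions 15 were listed at 0 in both libraries.

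Markers of non-neural cells were low in both sorts, with 1 exception. The 13 measured erythroid genes summed to 10.7 in GFP-positive and 342 in GFP-negative cells, and Hbb-bs, an adult beta globin, had 0.911 against 189 (ratio -6.64). The near-identical pairs Hba-a1 with Hba-a2 and Hbb-bs with Hbb-bt can share reads. The defining microglial genes Cx3cr1, C1qa and Tyrobp were at 0 in both, and the 18 microglial genes summed to 7.12 and 7.99, nearly all of it Cd68. Endothelial genes summed to 0.798 and 2.34, with Cldn5 and Cdh5 at 0 in both. Mural genes summed to 2.40 and 15.1, fibroblast and meningeal genes to 3.50 and 17.8, and ensheathing and Schwann glia genes to 1.87 and 24.7. A single gene gave the greatest share of each of these GFP-negative sums: Notch3 (6.89), Prrx1 (13.9) and Ednrb (20.6). Of 12 astrocyte genes 5 were kept and 4 were lower, among them Aldoc with 3.43 against 64.9 (ratio -3.89), while Gfap was at 0 in both. The 9 oligodendrocyte lineage genes summed to 18.4 in GFP-positive and 14.0 in GFP-negative cells, with the factor Olig1 at 0 in both. Of these 2 were kept, 1 higher and 0 lower past the fold. The 12 measured olfactory sensory neuron genes summed to 35.0 and 29.6, with Cnga2 and Ano2 at 0 in both. Of these 3 were kept, 1 higher and 0 lower, where 14.3% of named genes were higher and 16.6% lower.

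The genes far apart at E13 were looked up in the other library pairs, which took no part in choosing them. Of the 55 named genes at 3 or above at E13, 53 were also above 0 at E15, 46 at E17 and 44 at P0. All 3 later ages had the same direction for 39 (70.9%), against 23.9% of all named genes above 0 at all 3 ages. Of the 296 at -3 or below, 289, 280 and 247 were below 0 at E15, E17 and P0, and 242 were below 0 at all 3 (81.8%, against 24.3%). This recurrence of high ratios held for named genes only. Over all kept rows, 51 of 234 at 3 or above kept the direction at all 3 ages (21.8%, against 21.9%). Their median ratio was 0 at each later age. Of 511 kept rows at -3 or below, 282 kept the direction (55.2%, against 23.4%). The differences narrowed. Median ratios of the 55 ran 3.35 at E13, 2.16 at E15, 1.68 at E17 and 1.69 at P0, and those of the 296 ran -3.83, -2.96, -1.89 and -1.05. A narrower value away from the age at which genes were chosen also arises from the choice itself.

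**Figure D4:**
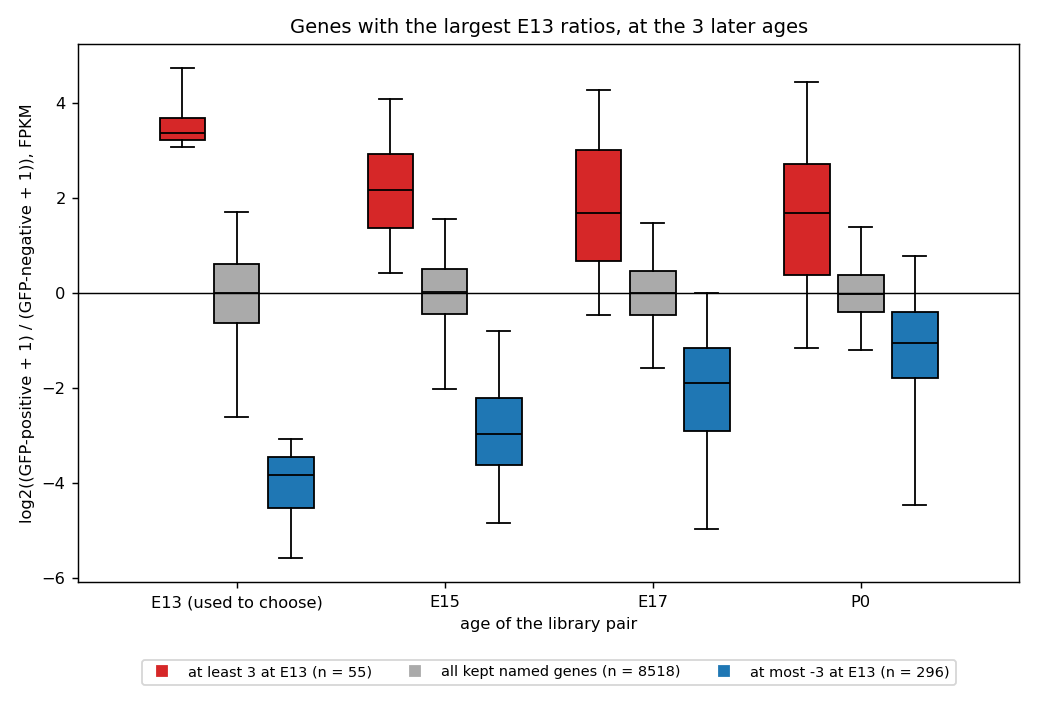
Log2 ratio of GFP-positive to GFP-negative FPKM (each + 1) in the library pair of each age, for the 55 named genes at 3 or above at E13 (red), the 296 at -3 or below (blue) and all 8518 (grey). Boxes span the quartiles with the median as a line, whiskers the 5th to 95th percentiles. The E13 values chose the red and blue genes. Red medians stay above 0 and blue medians below 0 at all 3 later ages, 1.69 and -1.05 at P0.

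Single genes took different courses. Lamb1 kept a wide separation, with 150 against 9.39 at E15, 134 against 7.25 at E17 and 121 against 3.58 at P0 (ratios 3.86, 4.04 and 4.74). Reln had its highest level at E13 in both libraries, with 349 and then 55.0, 64.8 and 47.5 in GFP-positive cells, while its ratio stayed between 2.50 and 4.11. Cdkn1a was 8.89 against 24.3 at P0, a ratio of -1.36 after 3.65 at E13. Eomes and Tbr1, near even at E13, had ratios of 3.05 and 2.28 at P0, where the GFP-negative level was 17.3 and 54.3. Fabp7 in GFP-positive cells was 7.73 at E13 and 183, 54.6 and 172 later, and in GFP-negative cells 2221, then 2825, 629 and 370. Dlx1 and Gad2 stayed lower at every age, with ratios from -6.24 to -4.21 and from -5.0 to -4.02.

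Whether the E13 ratio differed from the ratios of the other ages was tested with limma over 14999 rows, with the E13 pair against the 3 later pairs. No row passed an adjusted p of 0.05 (0%), the lowest adjusted p was 0.124, and 1301 rows (8.67%) had an unadjusted p below 0.05. The fit had 2 residual degrees of freedom, and on simulated data it recovered 0% of differences of 1, 2 or 3 on the log2 scale and 41.0% of differences of 5. The absence of calls therefore does not show that E13 was like the later ages.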

How the data were processed

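The deposited values are FPKM per gene, which the authors made from single-end reads. The submitters' processing notes name the mouse build mm10 with Cufflinks 2.2.1, TopHat2 2.0.9 and CASAVA 1.8.2. Strand setting, annotation and filters on reads were not stated in the sources used, so overlapping and antisense genes cannot be told apart, and genes sharing a row with another named gene were left out of list counts. The authors set 14 rows apart. Ratios between the E13 libraries were computed with a pseudocount of 1 and a minimum FPKM of 5. Read totals were not given, so depth was inferred from low values of genes with 1 transcript, 84.3% (GFP-positive) and 89.0% (GFP-negative) of which were whole reads within 0.1 read (20% if spread evenly). Precision is limited by 1 library a group.

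Members and gene lists were chosen with earlier results of these data known. Named are Nts, Mapt, Reln and Slc17a7, the 25 highest and 25 lowest ratios among rows naming 1 gene, the 10 highest FPKM values in each library, and up to 5 members of each of 39 lists by ratio, members against the direction of their list, all neurotensin pathway genes, and further list members where described. limma 3.58.1 in R 4.3.3 compared the E13 ratio with the ratios of the later ages on log2(FPKM + 1), over rows that averaged at least 1 FPKM, with a mean-variance trend, 2-sided tests and Benjamini-Hochberg adjustment, and was tested on simulated data. Libraries of different ages serve as the error there, and nothing in the labels says that they share animals. Gene positions are from an annotation of GRCm38, the assembly of mm10, matched by symbol for 9725 of 10829 kept rows. Alternatives covered the pseudocount, the minimum, the scaling and the kinds of rows. Some genes that the rule would name are not reported here, and counts and sums of lists include them.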

Additional observations from a re-analysis of the deposited data

Results flagged for a closer look

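The authors set some rows apart from the main table, and 3 of these name genes of known neural roles with values outside the comparison. All 3 are flagged because they lie in data the comparison did not use. The row naming Zbtb20, a transcription factor of forebrain progenitors and glia, together with a microRNA, had an FPKM of 3.94 in GFP-positive and 142 in GFP-negative E13 cells (log2 ratio -4.86). Dcx, the microtubule protein doublecortin of migrating neurons, had 766 against 408 (ratio 0.91). Malat1, a nuclear long RNA, had 1288 against 1790 (ratio -0.47). The authors' deposited status field marks the estimate as failed in both E13 libraries for Dcx and Malat1 and in the GFP-negative one for Zbtb20, so these values may not be reliable.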

How the results depend on the processing

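No paired analysis was possible because the 2 E13 groups have 1 library each and no replicate number in the labels; across ages, the limma comparison already uses the age-matched pair of libraries as its unit. The count of rows higher past the fold was 1638, and was 1079 with a pseudocount of 5 and 904 with a minimum FPKM of 20. The count of lower rows was 2078, and was 3202 with a minimum of 1 or none and 925 with a minimum of 20. Of lists with a median of at most -1 there were 18, and 11 without a minimum. Named genes far higher at E13 with the same direction at all later ages numbered 39, and 83 with a pseudocount of 0.1 and 8 with 5. Those far lower numbered 242, and 57 with a pseudocount of 5 and 144 with a minimum of 20. These counts shift with the number of rows kept and with how far the pseudocount shrinks ratios. With a minimum of 20, the median of the transmitter identity genes turned from -2.18 to 1.17 and that of the cell cycle exit genes from -1.06 to 0.82, since fewer members were kept. Median-of-ratios scaling (log2 factor -0.03) left the ratios of all 275 genes followed here on the same side. The pseudocount mattered more for single genes. With a pseudocount of 5 the ratios of 136 of the 275 moved in size or across the fold, and with 0.1 those of 91. The medians of 19 and 10 of 38 lists moved likewise. None of these reversed direction. The limma comparison gave 0 calls, between 0 and 0 when each later pair was left out, 51 without the mean-variance trend and 97 without a filter on low values; the cause was not tested. Low depth limits genes near the minimum.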

Other observations

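Immediate early genes, which neurons and stressed cells switch on within minutes, include members whose E13 ratio stood apart from the later ones and members whose ratio did not. Fos had an FPKM of 25.5 in GFP-positive and 3.77 in GFP-negative cells at E13 (log2 ratio 2.47), against ratios of -0.57, -2.60 and -1.16 at E15, E17 and P0. Fosb had 7.29 against 0.729 (ratio 2.26), with later ratios of -1.67, -2.32 and -1.23, and Nr4a1 had 11.1 against 2.28 (ratio 1.89), with later ratios of -1.87, -3.61 and -3.10. In limma's comparison of E13 with the later ages the adjusted p was 0.39 for Fosb, 0.45 for Nr4a1 and 0.56 for Fos, so none passed. Dusp1 had a ratio of 0.99 at E13 and 1.63, 0.76 and 0.74 later, and Jund had -0.15 at E13 and 0.37, -0.11 and 0.23 later. The 3 genes named first were picked after their values were seen. Of 17 genes in that list 9 were kept at E13, with 4 higher and 1 lower, where 14.3% of named genes were higher and 16.6% lower. Cells were dissociated before the sort, and the part of that step in these values was not tested.

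Cholesterol synthesis genes were all on one side at E13. Of 18 listed 17 had a row and 16 were kept, and all 16 had a ratio above 0, though only 5 were past the fold (median 0.93). For all named genes the median was -0.0028, and 14.3% were higher past the fold. Msmo1, a sterol oxidase, had 55.9 against 19.5 (ratio 1.47) and Lss, lanosterol synthase, 33.4 against 12.2 (ratio 1.39). The median was 0.41 at E15, 0.13 at E17 and -0.27 at P0. Ribosomal protein genes were near even, with 69 kept, 4 higher, 6 lower and a median of -0.24. Mitochondrial transcripts were lower in GFP-positive cells in each of 4 kept rows, with a median of -0.69. Dbi, the acyl-CoA-binding protein, was among the most abundant transcripts of GFP-negative cells, with 118 against 1209 (ratio -3.35), and Tuba1a, an alpha-tubulin of young neurons, was abundant in both with 3496 against 1897 (ratio 0.88).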
